A study of Mus musculus with 2 samples.

Results

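The genes described here belong to families that attach ubiquitin or a ubiquitin-like protein to proteins or remove it again. Not all encode enzymes: the F-box proteins are substrate receptors, and Ube2d-ps is annotated as a noncoding RNA. The families are the activating enzymes named Uba, the conjugating enzymes named Ube2, the F-box proteins named Fbxl, Fbxo and Fbxw, and the deubiquitinases named Usp and Uchl. Members were chosen by gene symbol alone, with no use of their measured values. The choice gave 113 genes on 132 probes, of 13709 genes with a single symbol and a value on both arrays. Another 1 gene with a matching symbol was not analysed here. Gene expression was measured in the lens of mice aged 13 days, 5 mice in the series, with 1 array of cortical fiber cells (cortex) and 1 array of the epithelium. The epithelium sample was the lens capsule with the cells adhering to it, and the cortex sample was the fiber tissue left after forceps dissection. The sources used here do not give strain, sex or genotype, or whether the lenses were pooled.

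Ubiquitin is passed along a relay. An activating enzyme (E1) loads it, a conjugating enzyme (E2) carries it, and a ligase (E3) brings the loaded E2 to a substrate. F-box proteins are the exchangeable substrate receptors of the SCF ligases, which are built on the adaptor Skp1, the cullin Cul1 and the RING protein Rbx1. Deubiquitinases cut ubiquitin off, and chains linked in particular ways send proteins to the proteasome, to membranes or to DNA repair. In the lens, epithelial cells leave the cell cycle and become fiber cells, which later lose their nuclei and other organelles. The ubiquitin pathway is among the routes by which lens cells degrade proteins.

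Values are the deposited intensities, scaled so that the median of an array is close to 1, and the difference is log2 cortex minus log2 epithelium. Intensities below a floor of 0.5 of the array median were raised to it (0.499 on both arrays). Where a gene cleared the floor on a single array, its fold is a bound, written "at least". A gene passed the limit when 1 sample exceeded the other by 3-fold or more and the brighter value reached its array's median. With 1 array per group there is no replicate and no test, so every difference is 1 array against 1 array. The error available is the spread between different probes of the same gene, a technical measure. Its pooled SD was 1.10 on the log2 scale over 558 genes and 0.50 over the 8 member genes with several measurable probes, and 3-fold is a log2 difference of about 1.6. Levels in tissue RNA cannot separate fewer expressing cells from less RNA per cell.

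Both arrays carried the markers of their labels. Of 10 fiber markers measured, 8 were higher in cortex and none in epithelium, and 5 passed towards cortex after quantile normalization, after a loess correction for brightness and after centring on ribosomal genes. Of 9 epithelial markers, 7 were higher in epithelium, including Foxe3 and Cdh1, which were under the floor in cortex. Of the other 2, Cryab, which both tissues express, passed towards cortex as deposited but in none of these 3 scalings, and 1 had a bound under the limit. Because the sample descriptions mention fetal liver, liver and erythroid markers were read as well. They summed to 8.81 in cortex and 8.19 in epithelium over 9 genes, with Ttr and Apoa1 under the floor on both arrays. Sums here and below count values under the floor at the floor. The erythroid gene Epb42 alone passed, at 2.09 in cortex and 0.678 in epithelium (3.08-fold), though not with a floor at the array median or after that centring. Proliferation markers summed to 20.8 in cortex and 140 in epithelium over 17 genes, with 12 higher in epithelium. Pigment cell and ciliary body markers summed to 13.9 in cortex and 148 in epithelium over 9 genes, of which Ptgds made up 7.54 in cortex and 123 in epithelium. Of these 9, 5 were higher in epithelium, Dct was at least 3.95-fold higher in cortex, and Tyr was under the floor on both arrays.

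Ubiquitin-system genes differed in both directions. Of the 113 genes, 9 passed the 3-fold limit towards cortex (7.96%) and 13 towards epithelium (11.5%). Over all 13709 genes the shares were 9.41% and 8.17%, so the shares among the members were near the background in both directions. Another 74 members were measurable in both samples and lay within the 3-fold limit, 59 of them within 2-fold. A further 6 had a bound under 3-fold, and 11 were under the floor on both arrays. The median log2 difference was -0.01 over the members and 0.00 over all genes. The middle 50% of members lay between -0.74 and 0.59, against -0.47 and 0.55 over all genes.

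The split between directions moved with the scaling of the arrays. It was 9 genes towards cortex and 13 towards epithelium as deposited. Quantile normalization gave 5 and 14, against 8.26% and 9.36% of all genes. A loess correction for brightness gave 6 and 11, against 9.21% and 7.83% of all genes. Of 61 ribosomal protein genes, 60 were brighter in cortex, with a median of 0.93. Setting that median to 0 (ribosomal centring) moved the median of all genes to -0.40 and gave 3 and 31, against 4.19% and 20.3% of all genes. With the deposited scaling and other limits, a floor at the array median gave 9 and 11 (8.07% and 6.4% of all genes), a 2-fold limit 17 and 21 (16.4% and 15.3%), and a 5-fold limit 4 and 4 (5.09% and 3.48%). Of the 22 genes that passed with the deposited scaling, 14 kept their call in all 3 other scalings, and none changed direction in any of them. Ribosomal centring lowers the difference of each gene above a floor by 0.93. The 13 genes higher in epithelium therefore could not lose their call in it, while 3 of the 9 higher in cortex kept theirs.

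**Figure D1:**
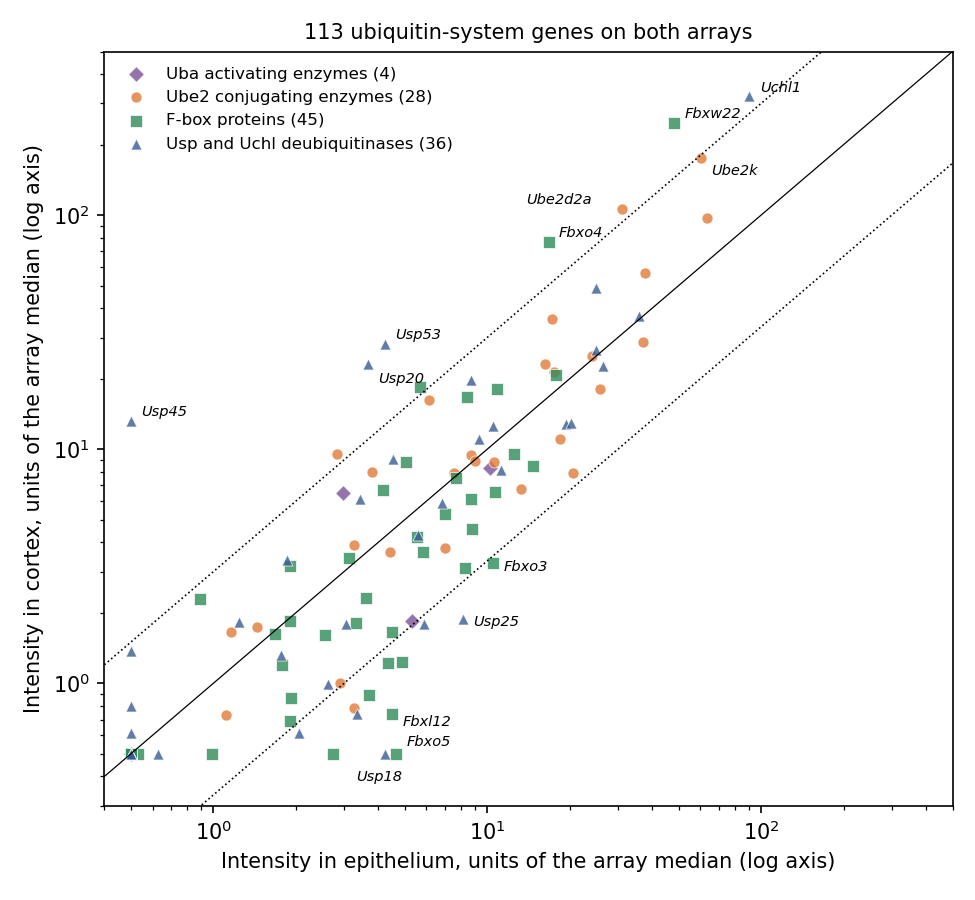
Intensity of each of the 113 genes in cortex (vertical axis) and epithelium (horizontal axis), both on log axes in units of the array median, with 1 point per gene and the symbol giving the class. Values under the floor are drawn at it, the solid line marks equal intensity and the dotted lines mark 3-fold; Usp45 lies farthest above the lines, and Fbxo5 and Usp18 lie lowest on the right.

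The 22 genes that passed included every class except the activating enzymes. The 9 higher in cortex were Usp45, Usp53, Usp20, Fbxw22, Fbxo4, Uchl1, Ube2d2a, Ube2j1 and Fbxo36. The 13 higher in epithelium were Fbxo5, Usp18, Fbxl12, Fbxl6, Usp3, Usp25, Ube2t, Fbxo17, Fbxo33, Fbxo44, Usp54, Usp14 and Fbxo3. The genes nearest the limit on the inside were Fbxo3 (3.21-fold), Fbxo36 (3.23-fold) and Usp14 (3.27-fold). Those nearest on the outside were Ube2k (2.91-fold), Ube2l6 (2.89-fold) and Uba6 (2.88-fold).

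**Figure D2:**
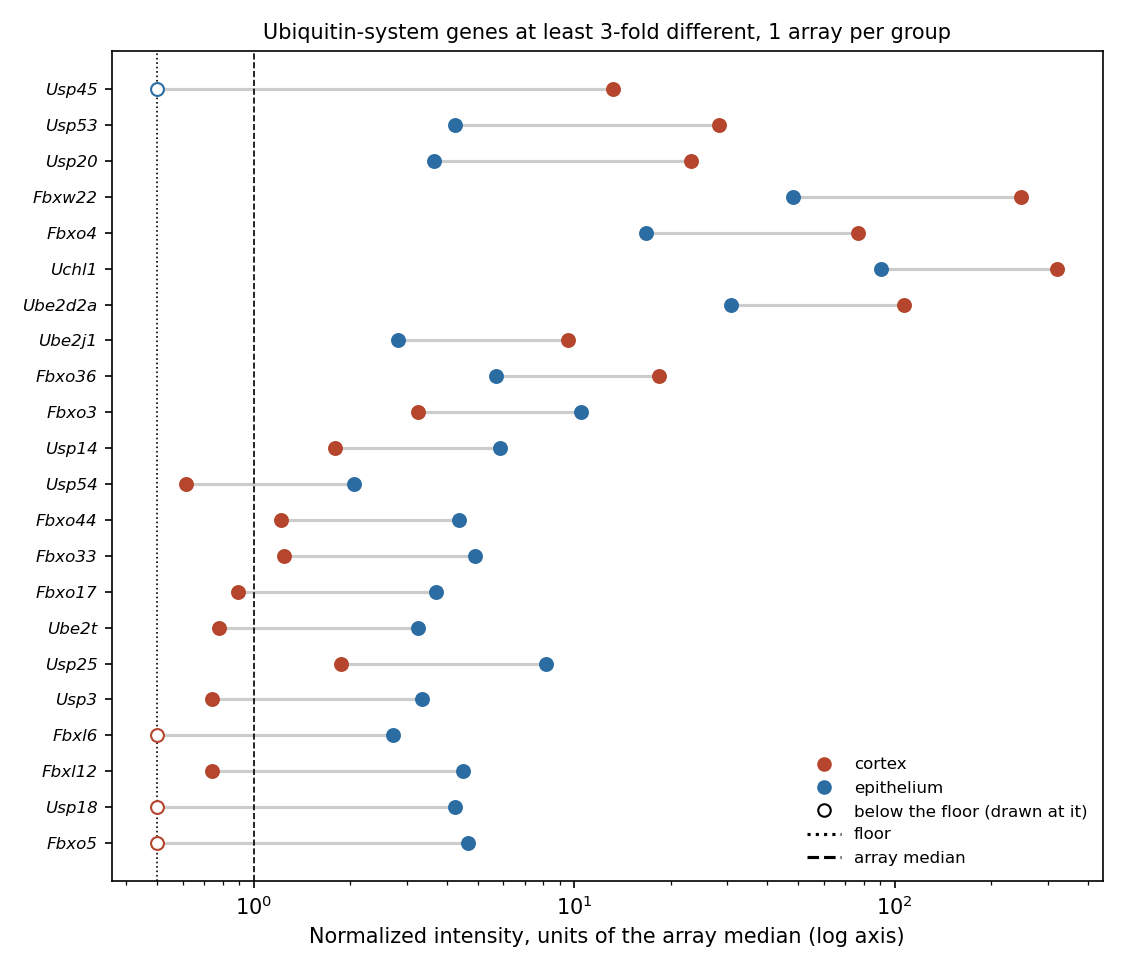
Intensity in cortex and in epithelium of the 22 genes at least 3-fold different, on a log axis in units of the array median, with 1 array per group and no error bars. Open points are values under the floor and are drawn at it; Usp45 is the only gene of the 22 under the floor in epithelium, and Fbxo5, Usp18 and Fbxl6 are under it in cortex.

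Promoters are shown for 4 of these genes. Usp45 and Fbxo5 had the largest difference in each direction, Uchl1 was the only C-terminal hydrolase to pass, and Ube2t was the only conjugating enzyme higher in epithelium. Each sequence is from RefSeq (build GRCm38.p6) and runs from 250 bases before the annotated start of the gene to 50 after it, 5′ to 3′ on the gene's strand. Capitals mark, on either strand, GGGCGG (the GC box) in Usp45, GAANNTTC (a pair of inverted heat shock element units) in Uchl1, and CCAAT (the CCAAT box) in Fbxo5 and Ube2t. The promoters lie at chr4:21776020-21776319 (plus strand) for Usp45, chr5:66675871-66676170 (plus strand) for Uchl1, chr10:5805416-5805715 (minus strand) for Fbxo5 and chr1:134962315-134962614 (plus strand) for Ube2t.
Usp45: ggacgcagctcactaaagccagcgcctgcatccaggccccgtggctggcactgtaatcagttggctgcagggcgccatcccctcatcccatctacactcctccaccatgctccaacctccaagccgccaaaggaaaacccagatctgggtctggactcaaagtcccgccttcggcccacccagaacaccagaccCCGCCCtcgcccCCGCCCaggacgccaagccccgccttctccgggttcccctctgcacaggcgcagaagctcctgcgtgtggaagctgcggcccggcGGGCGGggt
Uchl1: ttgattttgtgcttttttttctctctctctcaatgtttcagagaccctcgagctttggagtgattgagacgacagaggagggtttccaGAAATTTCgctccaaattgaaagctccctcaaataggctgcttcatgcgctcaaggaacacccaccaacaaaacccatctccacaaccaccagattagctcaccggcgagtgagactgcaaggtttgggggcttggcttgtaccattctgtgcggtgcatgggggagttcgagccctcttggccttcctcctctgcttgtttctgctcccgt
Fbxo5: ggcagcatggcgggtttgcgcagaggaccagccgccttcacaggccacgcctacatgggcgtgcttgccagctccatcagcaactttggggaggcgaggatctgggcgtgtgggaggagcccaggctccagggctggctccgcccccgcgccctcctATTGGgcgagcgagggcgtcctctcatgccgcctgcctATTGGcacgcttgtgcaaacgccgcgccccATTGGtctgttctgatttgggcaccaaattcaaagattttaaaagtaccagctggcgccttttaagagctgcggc
Ube2t: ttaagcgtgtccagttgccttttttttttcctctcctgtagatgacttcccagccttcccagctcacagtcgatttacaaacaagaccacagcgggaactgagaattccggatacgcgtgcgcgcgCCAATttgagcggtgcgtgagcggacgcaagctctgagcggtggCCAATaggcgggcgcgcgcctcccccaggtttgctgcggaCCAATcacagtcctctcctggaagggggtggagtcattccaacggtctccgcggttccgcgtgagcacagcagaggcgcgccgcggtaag
In Fbxo5 the 3 CCAAT matches began 93, 55 and 25 bases before the annotated start, and in Ube2t they began 124, 80 and 40 bases before it. Of 32851 RefSeq promoters of this length, 37.4% held at least 1 CCAAT and 3.37% held at least 3. Among 107 promoters of 85 member genes, 3 held at least 3 (2.80%): those of Fbxo5, Ube2t and Ube2f. Ube2f, an E2 for the ubiquitin-like protein Nedd8, was within the limit, at 3.77 in cortex and 6.99 in epithelium. At least 1 GGGCGG was held by 35.7% of all promoters, and GAANNTTC by 7.86%. None of the capitalised matches overlapped a match to another of these motifs, and a match is a description of letters, not of a bound factor.

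No activating enzyme passed the limit, of 4 measured. Uba3, the catalytic subunit of the E1 for Nedd8, stood at 8.27 in cortex and 10.3 in epithelium. Its other probe stood at 2.12 in cortex and under the floor in epithelium, at least 4.24-fold brighter in cortex, so the probes disagree on direction. Uba6, an E1 for ubiquitin and for the ubiquitin-like protein Ubd (FAT10), stood at 1.85 in cortex and 5.32 in epithelium (2.88-fold). Its other probe was nearly level, at 2.79 in cortex and 2.71 in epithelium. Uba1y, a Y-linked relative of the main ubiquitin E1, stood at 6.53 in cortex and 2.96 in epithelium, and its probe may also detect the X-linked copy. Uba7, the E1 for the interferon-induced modifier Isg15, was under the floor on both arrays.

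Conjugating enzymes were measured throughout: all 28 genes of the class were above the floor on both arrays. Among the 28, Ube2d-ps is annotated as a noncoding RNA. It stood at 7.99 in cortex and 3.78 in epithelium (2.11-fold), and its other probe was under the floor on both arrays. Ube2d2a and Ube2j1 were higher in cortex, Ube2t was higher in epithelium, and 25 were within the limit. The shares were 7.14% towards cortex and 3.57% towards epithelium, against 9.41% and 8.17% of all genes. Of all genes above the floor on both arrays, 13.2% and 10.2% passed. The class median was 0.08. Quantile normalization turned it to -0.14 and ribosomal centring to -0.85, so the class has no settled direction. In those scalings the median of all genes above the floor on both arrays was -0.16 and -0.90.

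Ube2d2a belongs to the widely used Ube2d family, which serves many E3 ligases. It stood at 107 in cortex and 30.9 in epithelium, for a log2 difference of 1.79 (3.45-fold). Its relatives differed less, with Ube2d3 at 97.5 in cortex and 63.7 in epithelium and Ube2d1 at 23.1 in cortex and 16.2 in epithelium. Family members are similar in sequence, so their probes may share signal. Ube2d2a was under 3-fold in each of the 3 other scalings, with log2 differences of 0.85 to 1.17. Ube2j1 is anchored in the endoplasmic reticulum and acts in the degradation of misfolded secretory proteins. It stood at 9.53 in cortex and 2.82 in epithelium, for a log2 difference of 1.75 (3.37-fold), while its relative Ube2j2 stood at 11.1 in cortex and 18.5 in epithelium. Ube2j1 kept its call after quantile normalization and loess, and its log2 difference was 0.82 after ribosomal centring.

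Ube2t, the E2 of the Fanconi anaemia DNA repair pathway, stood at 0.78 in cortex and 3.25 in epithelium, for a log2 difference of -2.06 (4.17-fold). The cortex value was below the array median, and with the floor at that median the difference was at least 3.26-fold. Usp1, which removes the ubiquitin that Ube2t helps attach, was within the limit at 22.7 in cortex and 26.5 in epithelium. Proliferation markers were also higher in epithelium, as given above, and their part in the Ube2t value was not tested. Ube2s, which extends chains for the anaphase-promoting complex, lay the other way within the limit, at 36.1 in cortex and 17.2 in epithelium.

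Among the remaining conjugating enzymes the difference ran from 2.91-fold brighter in cortex to 2.89-fold brighter in epithelium. Ube2k, which builds lysine-48-linked chains by itself, stood at 175 in cortex and 60.2 in epithelium. Ube2e2 stood at 16.2 in cortex and 6.11 in epithelium, whereas Ube2e1 stood at 7.94 in cortex and 20.5 in epithelium and Ube2e3 was nearly level (25.0 in cortex, 24.2 in epithelium). Ube2e2 stayed above 0 and Ube2e1 below 0 in each of the 3 other scalings, while Ube2e3 turned below 0 in each. Ribosomal centring could only lower the Ube2e1 value. The Rad6 homologs, which act in DNA damage tolerance and histone ubiquitination, were within the limit too: Ube2b stood at 56.8 in cortex and 37.8 in epithelium, and Ube2a at 8.86 in cortex and 10.6 in epithelium. Ube2n, the E2 of lysine-63-linked chains, stood at 9.40 in cortex and 8.75 in epithelium.

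F-box proteins leaned towards epithelium. Of 45 measured, 3 passed towards cortex and 7 towards epithelium, 27 were within the limit on both arrays, 2 had a bound under 3-fold and 6 were under the floor on both. These counts are 6.67% towards cortex and 15.6% towards epithelium, against 9.41% and 8.17% of all genes. The counts were 1 and 7 by quantile normalization, against 8.26% and 9.36% of all genes. By loess they were 2 and 6, against 9.21% and 7.83%, and by ribosomal centring 0 and 17, against 4.19% and 20.3%. Counting any size of difference, 11 were brighter in cortex and 28 in epithelium, against 5497 and 4849 of all genes. The class median was -0.40, against 0.00 for all genes. It stayed below 0 in each scaling: -0.50 by quantile normalization, -0.29 by loess and -1.33 by ribosomal centring, where all genes moved to -0.40. These medians include genes under the floor on both arrays, set to 0. Above the floor on both arrays, the F-box medians were -0.60, -0.41 and -1.44 in the same order. Those of all genes were -0.16, -0.01 and -0.90. The lean was in the Fbxl genes (median -0.51, 9 genes) and the Fbxo genes (median -0.67, 25 genes). The WD40 repeats of the Fbxw proteins bind phosphorylated substrates. The median of the 11 Fbxw genes was 0.00, the value set for those under the floor on both arrays. Of the 9 Fbxw genes above the floor on both arrays, 5 were brighter in cortex and 4 in epithelium. The Fbxl and Fbxo medians stayed below 0 in the 3 other scalings, at -1.44 to -0.42 and at -1.60 to -0.48. The difference between these families was not tested.

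**Figure D3:**
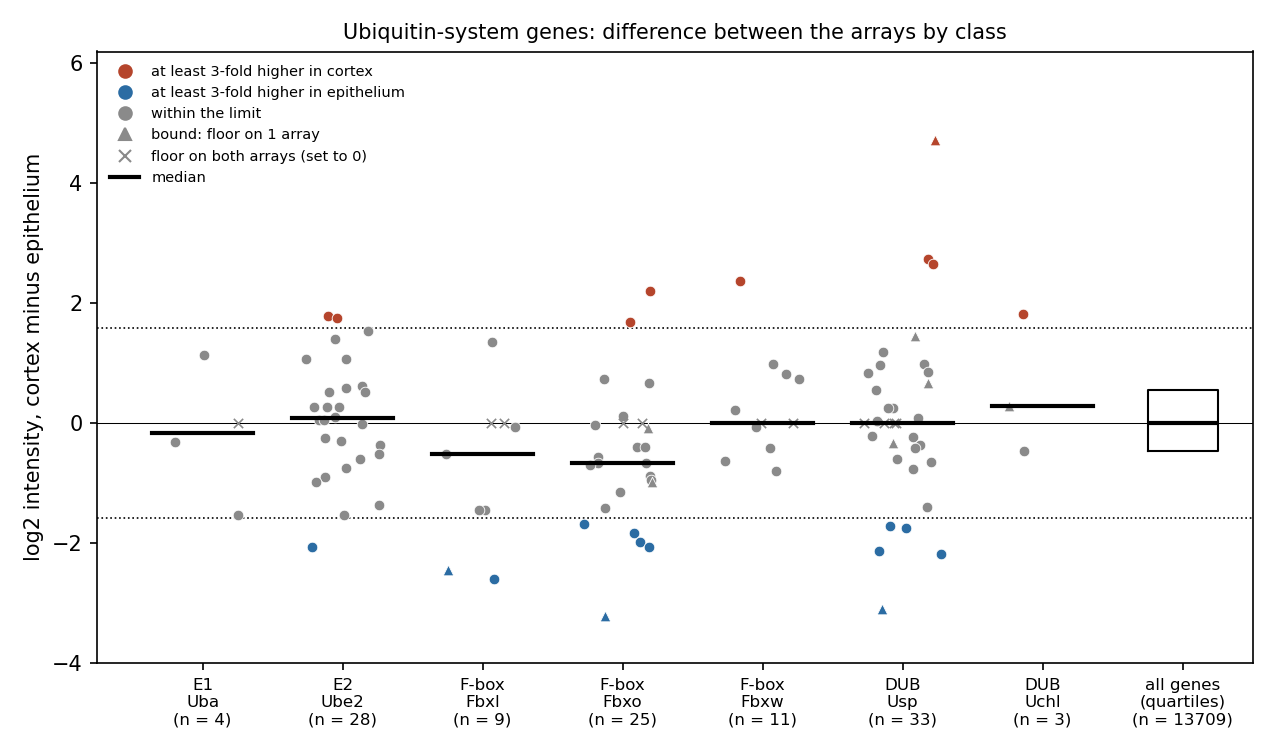
Log2 difference in intensity, cortex minus epithelium, for each gene by class, with a bar at each class median and, at the right, the quartiles of all 13709 genes. The Fbxl and Fbxo medians lie below 0 (-0.51 and -0.67), and the other classes have medians between -0.16 and 0.29.

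Fbxo5 encodes Emi1, an inhibitor of the anaphase-promoting complex that acts in S and G2 phase. It stood at 0.229 in cortex, under the floor, and 4.65 in epithelium, so it was at least 9.32-fold higher in epithelium, and at least 4.66-fold when the floor was raised to the array median. Of 17 proliferation markers, Mki67 (0.542 in cortex, 16.8 in epithelium) and Cdk1 (0.252 in cortex, 15.0 in epithelium) differed most. Both were near or under the floor in cortex. Higher in epithelium were 12 of the 17, while Bub1 was nearly level (0.806 in cortex, 0.642 in epithelium) and Plk1 was under the floor on both arrays. The part of these markers in the Fbxo5 value was not tested. Fbxl12, a receptor known to target cyclin-dependent kinase inhibitors, stood at 0.742 in cortex and 4.49 in epithelium, for a log2 difference of -2.60 (6.06-fold). Fbxl6 was under the floor in cortex (0.278) and stood at 2.73 in epithelium, at least 5.46-fold. With the higher floor the Fbxl6 difference was at least 2.73-fold, and it no longer passed.

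The other F-box genes higher in epithelium were Fbxo17 (0.89 in cortex, 3.70 in epithelium, 4.16-fold), Fbxo33 (1.24 in cortex, 4.90 in epithelium, 3.96-fold), Fbxo44 (1.22 in cortex, 4.36 in epithelium, 3.58-fold) and Fbxo3 (3.26 in cortex, 10.5 in epithelium, 3.21-fold). These 4 had cortex values close to or a few times the array median. Fbxo3, known to target the F-box protein Fbxl2, was under 3-fold after loess (log2 difference -1.56), and its other probe was under the floor on both arrays. Fbxl2 itself was brighter in cortex within the limit, at 2.30 in cortex and 0.895 in epithelium.

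Of the 3 F-box genes higher in cortex, Fbxo4 stood at 77.1 in cortex and 16.8 in epithelium, for a log2 difference of 2.20 (4.60-fold). In cultured cells Fbxo4 works with αB-crystallin, the product of Cryab, in an SCF ligase for cyclin D1, and Cryab was also higher in cortex as deposited (3.65-fold). Cryab was under 3-fold in the 3 other scalings, with log2 differences of -0.43 by quantile normalization, 0.07 by loess and 0.94 by ribosomal centring, so its direction is not settled. Fbxo4 kept its call after quantile normalization (1.66) and loess (1.77), but not after ribosomal centring (1.27). Fbxw22 stood at 249 in cortex and 48.1 in epithelium, for a log2 difference of 2.37 (5.17-fold), and was under 3-fold in the 3 other scalings (1.44 to 1.55). It belongs to a group of similar mouse Fbxw genes, so its probe may detect several of them. The related Fbxw21 stood at 16.7 in cortex and 8.42 in epithelium, and Fbxw18 and Fbxw27 were under the floor on both arrays. Fbxo36 stood at 18.4 in cortex and 5.70 in epithelium, for a log2 difference of 1.69 (3.23-fold), which was 1.49 after quantile normalization and 0.76 after ribosomal centring and passed in neither.

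Several well-known F-box genes were within the limit. Fbxw7, the receptor for cyclin E, Myc and Notch, stood at 3.18 in cortex and 1.91 in epithelium. Fbxw11, a β-TrCP receptor for phosphorylated β-catenin and IκB, was close to level at 20.8 in cortex and 17.8 in epithelium. Fbxo7, linked to mitophagy and proteasome regulation, stood at 18.1 in cortex and 10.9 in epithelium. Fbxo21 stood at 9.55 in cortex and 12.6 in epithelium, and its other probe at 3.53 in cortex and 4.37 in epithelium, so its probes lay the same way. Fbxl17, which acts in quality control of BTB domain proteins, stood at 6.12 in cortex and 8.71 in epithelium. Fbxo32, the muscle atrophy gene atrogin-1, was under the floor on both arrays.

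Deubiquitinases shared no direction, and they held the largest difference of all members, that of Usp45. Of 33 Usp genes, 3 passed the limit towards cortex and 5 towards epithelium, 18 were within the limit on both arrays, 3 had a bound under 3-fold and 4 were under the floor on both. The counts are 9.09% towards cortex and 15.2% towards epithelium, against 9.41% and 8.17% of all genes. The Usp median was 0.00, the value set for genes under the floor on both arrays. Over the 24 Usp genes above the floor on both arrays it was -0.09, with 12 brighter in each sample. Among the 3 Uchl genes, Uchl1 was higher in cortex.

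Usp45, a protease known for deubiquitinating the DNA repair protein Ercc1, stood at 13.2 in cortex and 0.309 in epithelium. As the epithelium value is under the floor, it was at least 26.6-fold higher in cortex, and at least 13.3-fold with that higher floor. Usp53, a relative found at tight junctions, stood at 28.2 in cortex and 4.23 in epithelium, for a log2 difference of 2.74 (6.68-fold). Usp20, known to deubiquitinate cell surface receptors and the thyroid hormone deiodinase Dio2, stood at 23.1 in cortex and 3.66 in epithelium, for a log2 difference of 2.66 (6.31-fold). The other Usp20 probe was under the floor on both arrays, and Usp20 did not pass with the mean over its probes. These 3 were the only genes higher in cortex among the 113 to keep their call in all 3 other scalings, with lowest log2 differences of 3.80 (Usp45), 1.81 (Usp53) and 1.72 (Usp20).

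Uchl1, a small hydrolase best known from neurons, stood at 322 in cortex and 90.7 in epithelium, for a log2 difference of 1.83 (3.55-fold). It was under 3-fold in each of the 3 other scalings (0.82 to 0.90) and stayed above 0. At the brightness of Uchl1 the loess curve over all genes lay above 0, towards cortex. Uchl5, which works at the proteasome, stood at 8.14 in cortex and 11.3 in epithelium. Uchl4 stood at 0.611 in cortex and under the floor in epithelium, a bound of 1.22-fold.

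**Figure D4:**
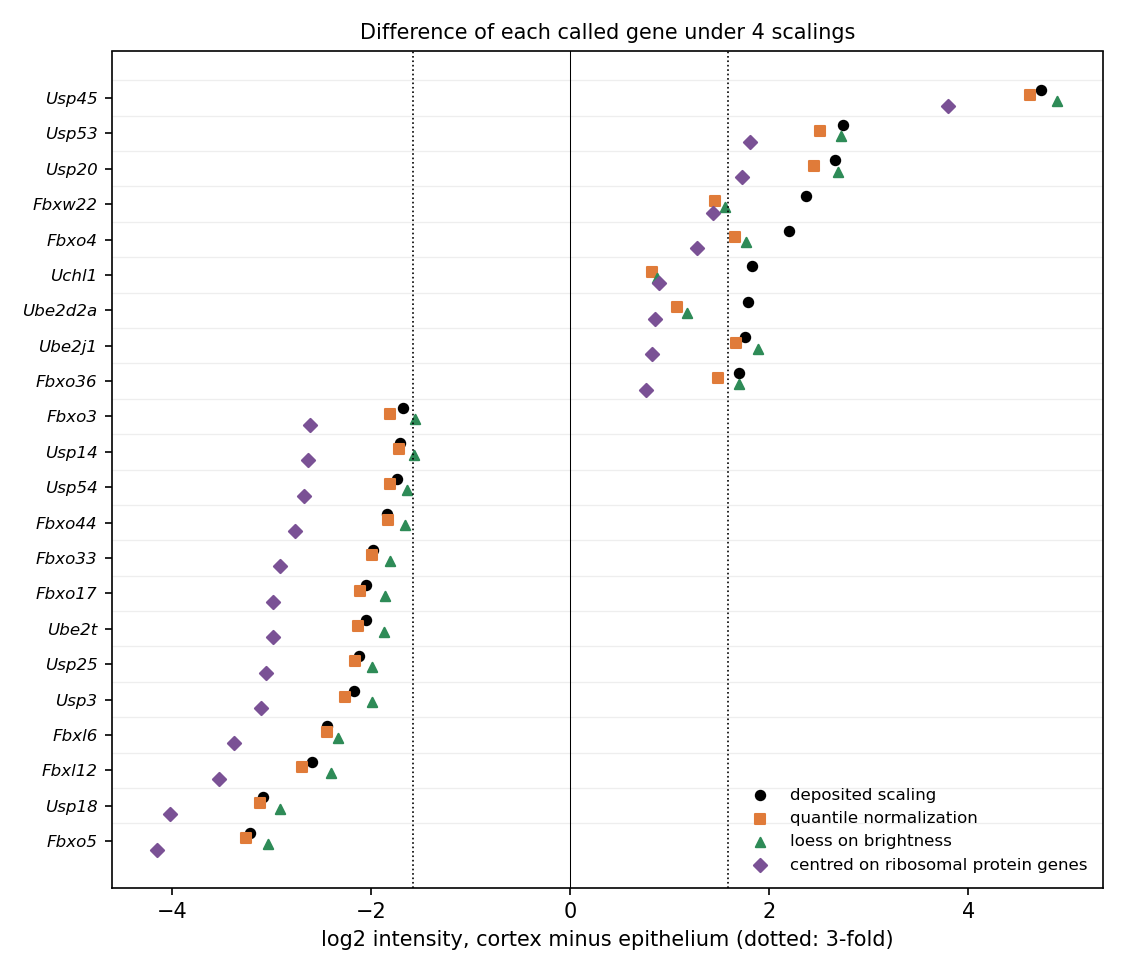
Log2 difference in intensity, cortex minus epithelium, of each of the 22 genes at least 3-fold different, under the deposited scaling and 3 others, with dotted lines at 3-fold. Usp45, Usp53 and Usp20 stay right of the line in each scaling, Uchl1 and Ube2d2a fall inside it in the 3 others, and all genes higher in epithelium stay left of the line except Usp14 and Fbxo3 after loess.

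Usp18, the protease that removes Isg15, was under the floor in cortex (0.370) and stood at 4.25 in epithelium, at least 8.52-fold higher, and at least 4.26-fold with the higher floor. Of 8 immune and interferon markers measured, 2 were higher in epithelium: Irf7 (at least 6.58-fold) and Ifit1 (at least 4.76-fold), of which Ifit1 no longer passed with the higher floor. Isg15 itself lay the other way and did not pass, at 1.22 in cortex and under the floor in epithelium (at least 2.45-fold). The other 5 were under the floor on both arrays: Ifit3, Cd74, H2-Aa, the leukocyte marker Ptprc and the macrophage marker Adgre1. With values under the floor counted at the floor, the 8 markers summed to 4.72 in cortex and 8.65 in epithelium. In cortex only Isg15 was above the floor, so that sum is mostly the floor itself. The part of these markers in the Usp18 value was not tested. Usp3, a histone H2A and H2B deubiquitinase, stood at 0.739 in cortex and 3.34 in epithelium, for a log2 difference of -2.18 (4.52-fold). Another Usp3 probe was at least 3.51-fold brighter in epithelium (0.215 in cortex, 1.75 in epithelium), and the third probe was under the floor on both arrays. Usp3 did not pass with the mean over its probes. Of the 22 genes, 3 had more than 1 probe, and of these only Usp3 had another probe that passed.

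Usp25 stood at 1.87 in cortex and 8.17 in epithelium, for a log2 difference of -2.12 (4.36-fold), and passed in each scaling. Usp54, a relative of Usp53, lay opposite to it, at 0.613 in cortex and 2.06 in epithelium (3.35-fold), but with the higher floor its difference was at least 2.06-fold. Usp53 stayed above 0 and Usp54 below 0 in each scaling, though ribosomal centring could only lower the Usp54 value. Usp14, which trims ubiquitin chains on the proteasome, stood at 1.79 in cortex and 5.86 in epithelium (3.27-fold), with a log2 difference of -1.57 after loess, under the limit. The other deubiquitinases of the proteasome were within the limit: Uchl5, given above, and Psmd14, at 20.8 in cortex and 22.7 in epithelium.

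The other Usp genes included broadly expressed enzymes that were nearly level. Usp9x stood at 37.0 in cortex and 35.9 in epithelium, and its other probe at 25.3 in cortex and 15.8 in epithelium. Usp10, a p53 deubiquitinase, stood at 26.4 in cortex and 24.9 in epithelium. Usp11 was 1.96-fold brighter in cortex (48.9 in cortex, 25.0 in epithelium). Usp5, which recycles free ubiquitin chains, was 2.63-fold brighter in epithelium (0.995 in cortex, 2.61 in epithelium). Usp17la (19.7 in cortex, 8.69 in epithelium) and Usp9y (1.83 in cortex, 1.24 in epithelium) have near-identical relatives, so their values are uncertain.

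Other genes of the ubiquitin system were read from lists. Of 10 genes for ubiquitin-like and related proteins measured, none passed, against 9.41% of all genes towards cortex and 8.17% towards epithelium. Their median was 0.69. Nedd8 stood at 171 in cortex and 97.5 in epithelium, Ubl5 at 126 in cortex and 74.7 in epithelium, and Sumo2 at 71.5 in cortex and 75.9 in epithelium. The other 7 were Isg15 (1.22 in cortex, under the floor in epithelium), Ubl3 (1.91-fold brighter in cortex), Fau (1.86-fold), Ufm1 (1.55-fold), Urm1 (1.08-fold), Sumo3 (1.45-fold brighter in epithelium) and Ubd, under the floor on both. Quantile normalization turned the list median to -0.08 and loess to 0.00, so no direction can be given.

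Of 13 genes of the cullin-RING core, 1 passed towards cortex and 1 towards epithelium (7.69% each, against 9.41% and 8.17% of all genes). Their median of 0.54 turned to -0.28 after ribosomal centring. Cand2, a cullin-associated protein, stood at 44.0 in cortex and 3.99 in epithelium (11.0-fold), while its relative Cand1 stood at 13.2 in cortex and 17.0 in epithelium. Cand2 kept its call in each scaling, and Cand1 stayed below 0, though ribosomal centring could only lower the Cand1 value. Cul7 was higher in epithelium, at 4.74 in cortex and 18.0 in epithelium (3.81-fold). The subunits that carry the F-box proteins did not pass. Skp1 stood at 95.6 in cortex and 42.9 in epithelium (2.23-fold), Cul1 at 5.53 in cortex and 3.16 in epithelium (1.75-fold), and Rbx1 at 138 in cortex and 94.8 in epithelium (1.46-fold). In the 3 other scalings Skp1 stayed above 0 (0.22 to 0.50), Cul1 turned to -0.13 after ribosomal centring, and Rbx1 lay below 0 in each (-0.39 to -0.29). Cul3 (2.65-fold), Ccnf (1.92-fold), Cul4a (1.57-fold), Cul2 (1.45-fold) and Rnf7 (1.15-fold) were brighter in cortex within the limit. Btrc, the other β-TrCP gene, stood at 4.75 in cortex and 9.42 in epithelium, and Cul4b was under the floor on both arrays.

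The other lists are short, so their shares are coarse. Towards cortex, 4.17% of the other deubiquitinases and 6.25% of the HECT ligases passed, against 9.41% of all genes. Towards epithelium no gene of these lists passed, against 8.17% of all genes. Of 24 other deubiquitinases and Sumo proteases, only Stambpl1, an endosomal protease for lysine-63-linked chains, passed: it stood at 16.1 in cortex and 0.761 in epithelium (21.1-fold). Its relative Stambp lay the other way within the limit, at 4.84 in cortex and 8.21 in epithelium. Of 16 HECT ligases only Smurf1, a ligase of BMP signalling, passed, at 1.71 in cortex and 0.555 in epithelium (3.08-fold), and it was within the limit with the higher floor, by quantile normalization (log2 difference 1.56) and by ribosomal centring (0.69). Its relative Smurf2 was 2.46-fold brighter in epithelium. None of 8 COP9 signalosome genes and none of 11 anaphase-promoting complex genes passed, with medians of 0.32 and 0.11. The COP9 median was 0.00, 0.20 and -0.61 by quantile normalization, loess and ribosomal centring. The anaphase-promoting complex median was -0.26, -0.10 and -0.83 in the same order, with 1 gene passing towards cortex by loess and 4 towards epithelium by centring, so neither list has a settled direction.

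**Figure D5:**
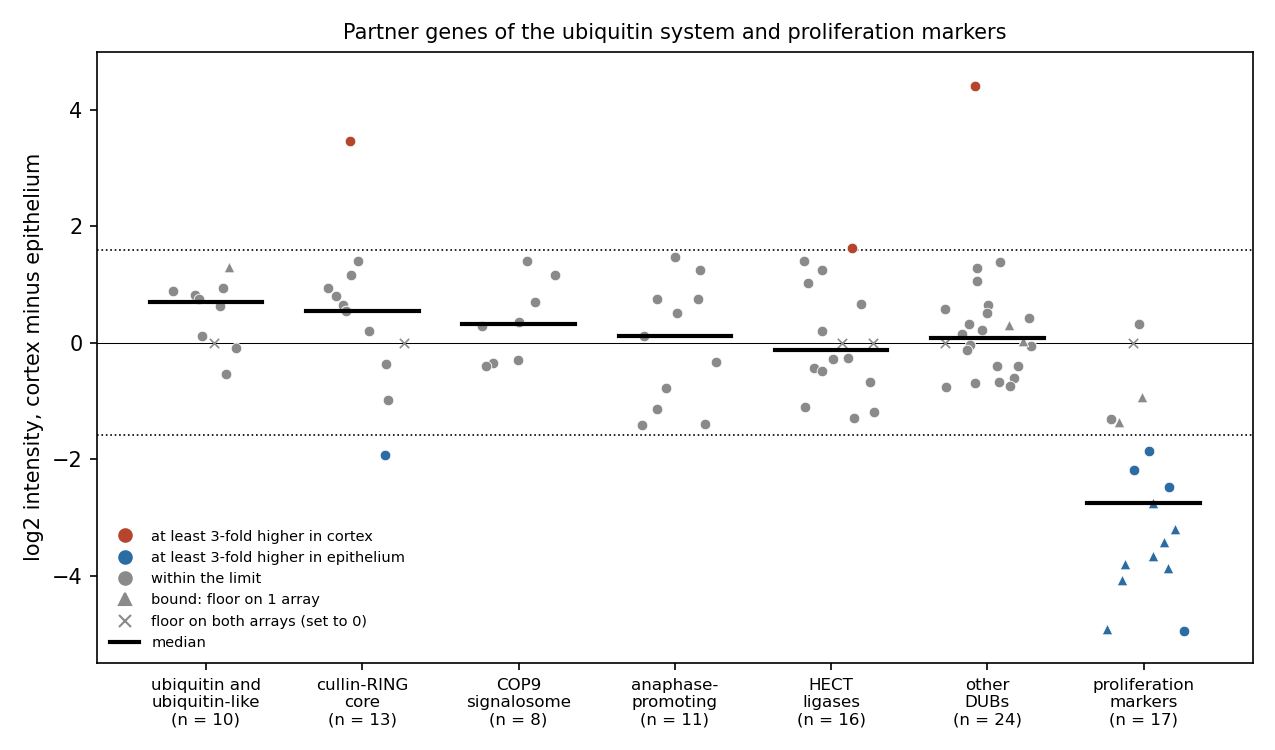
Log2 difference in intensity, cortex minus epithelium, of the genes of each partner list and of the proliferation markers, with a bar at each median and dotted lines at 3-fold. Stambpl1 and Cand2 stand above the upper line, Cul7 lies below the lower line, and the proliferation markers have a median of -2.76.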

How the data were processed

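RNA of 1 cortex sample and 1 epithelium sample was measured, each on a 1-colour CodeLink mouse array, per the labels. The deposited values are intensities on a linear scale, scaled by the authors so that each array's median is close to 1; the sources used here do not give the scaling and background steps. The table holds 19819 probes, and intensities ran up to 5411 in cortex and 1061 in epithelium. Negative values (161 in cortex, 74 in epithelium) were raised to the floor, and probes with a missing value (87 and 97) were left out. No detection flag was used, and the number of arrays limits the precision.

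Probes were named by the platform annotation. All 113 members matched RefSeq (GRCm38.p6) by Entrez identifier, and 85 had a promoter in the RefSeq table. Of several probes of a gene, the brightest by mean log2 value was used. Absolute levels were not compared between genes. Named genes were those past 3-fold, the 3 brightest of each class, those near the limit, members with another probe at least 3-fold the other way, all ubiquitin-like and cullin-RING genes, and up to 4 past the limit from each other list; any other is an example chosen after its values were seen. Members and lists were chosen with earlier results of these data known. The procedure was tested on simulated data. Alternatives were 3 scalings (quantile, loess with span 0.3, ribosomal centring), other floors, fold limits of 2 and 5, filters on dim genes and other treatments of probes. Python 3.11.15, numpy 2.4.6, pandas 2.3.3, statsmodels 0.14.6 and matplotlib 3.10.9 were used.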

Additional observations from a re-analysis of the deposited data

How the results depend on the processing

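The count of genes higher in cortex, 9, was 5 by quantile normalization and 3 by ribosomal centring, and the count in epithelium, 13, was 31 after that centring. A 2-fold limit gave 17 in cortex and 21 in epithelium, against 16.4% and 15.3% of all genes, and a 5-fold limit gave 4 in each direction. The median over all members was -0.19 after quantile normalization, -0.94 after centring, -0.23 with no floor and -0.22 over the 92 genes measurable in both samples. After centring, the medians were -0.85 for conjugating enzymes, -1.33 for F-box proteins and -0.69 for Usp genes, with all genes at -0.40. That last value includes genes under the floor in both samples, which centring did not move, whereas every conjugating enzyme was measurable in both. When only genes measurable in both samples were counted, the centred median was -0.90 for all genes and -1.44 for F-box proteins. The conjugating enzymes were thus near that background. With the floor at the array median all 9 genes higher in cortex and 11 of 13 in epithelium kept their call. With the mean over probes, 8 of 9 in cortex and 11 of 13 in epithelium kept it. Usp20, Usp3 and Fbxo3 lost theirs. None of the 22 called members changed sign under any alternative run, though ribosomal centring could not have turned those higher in epithelium. No paired analysis was possible because each group has 1 array. Most members have a single probe, and values near the floor limit the size of a fold. Of 8 other probes of members measurable on both arrays, 5 lay the same way as the probe used.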

Other observations

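A subfamily of F-box proteins shares a domain that, in Fbxo2 and Fbxo6, binds sugar chains on glycoproteins, and 4 of its genes were measured, grouped after their values were seen. Fbxo17 and Fbxo44 were higher in epithelium, as given in the report. Fbxo2 stood at 1.80 in cortex and 3.32 in epithelium (1.84-fold), and Fbxo6 at 1.60 in cortex and 2.55 in epithelium (1.59-fold), so all 4 were brighter in epithelium and 2 of them were within the limit. They stayed so in the 3 other scalings, of which ribosomal centring could not have turned them, and no test of this grouping was made.

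The modifier Isg15 and the enzymes of its cycle were also grouped after their values were seen. Ube2l6, the E2 for Isg15, stood at 1.01 in cortex and 2.91 in epithelium (2.89-fold), and Usp18 was higher in epithelium. Isg15 itself was at least 2.45-fold brighter in cortex, and Uba7 was under the floor on both arrays.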
